A study of Hevea brasiliensis with 21 samples.

Results

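Acyl carrier protein carries the chains of fatty acid synthesis, and serine palmitoyltransferase opens sphingolipid synthesis. The latex transcriptome of the rubber tree, Hevea brasiliensis, held 86941 contigs, and the values of 2 of them are described here in 21 libraries. CL103Contig4 (976 bases) has a putative acyl carrier protein of castor bean as its best match. CL100Contig24 (1971 bases) best matches Long chain base2 isoform 2 of cacao, the LCB2 subunit of serine palmitoyltransferase. The names rest on the annotation published with the reference transcriptome, and no contig sequence was at hand to check them. Both contigs were chosen by name with earlier results of these data known, among them the response of clone PB260 to ethephon. For these 2 contigs, values in comparisons that use PB260 trees are therefore given as a description, without a test. Some other listed contigs carry adjusted p-values in those comparisons, and the lists too were chosen with earlier results known. Whether the PB217 values were also known when the contigs were chosen is not recorded, and the tests in PB217 are to be read with that in mind.

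In plants, fatty acids are built in plastids, and also in mitochondria, with the growing chain held on acyl carrier protein. Serine palmitoyltransferase works at the endoplasmic reticulum, where its LCB1 and LCB2 subunits join serine to palmitoyl-CoA in the first committed step towards the long-chain bases of sphingolipids. Sphingolipids are membrane lipids, and in plants their long-chain bases are also known as signals in cell death. Latex is the cytoplasm of the laticifers, the cells in which rubber is made, and it flows out when the bark is cut.

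Latex was sequenced in 7 groups of 3 libraries. In PB260 each library held the latex of 1 tree; the sources used here do not describe the PB217 trees, and their libraries are taken as 1 tree each, so that p-values measure the spread between libraries. Tapping panel dryness (TPD) is the partial or complete stop of latex flow along the tapping cut, and ethephon is an ethylene releaser used to stimulate that flow. In clone PB217, control trees without ethephon and trees given ethephon 12 times a year were sampled after 1 month, and in both groups the trees are labelled healthy. After 36 months, PB217 had a healthy control group without ethephon and an ethephon group (12 times a year) labelled as having TPD. In clone PB260, all trees were sampled after 36 months of tapping: controls without ethephon, slight TPD trees with ethephon 12 times a year, and severe TPD trees with ethephon 12 times a year. The PB260 controls also showed slight TPD according to the study, although the labels call them and the slight TPD trees healthy. All trees are labelled wild type. The month and the ethephon frequency of PB217 come from the library titles alone, read as in the PB260 titles, and these titles carry another tapping code (T, D1) than those of PB260 (S, D2), so that clone and tapping code cannot be told apart. At month 36 the ethephon trees of both clones were harvested on another day than the controls, so ethephon there cannot be told apart from the harvest day, nor in PB217 from TPD. The month 1 trees were harvested in the same season as the month 36 trees, both arms on 1 day, so month 36 is not a later sample of the month 1 trees, and the months differ in harvest day too.

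The libraries held 16102321 to 23126417 counted read pairs, and no 2 of the 21 were identical. CL103Contig4 was counted 1792 to 4607 times in a library and CL100Contig24 842 to 4520 times. The part of counting error in the spread between trees was not computed. Reads that hit several contigs equally well, 20.1 to 24.6% of the mapped reads, had been left out, so near-identical contigs of a cluster can lose reads. The latex markers Hev b 4 (CL10238Contig1) and the 50 kDa latex protein (CL10238Contig2) were detected in each library, and the sum of the 2 photosystem II contigs stayed between 0.0532 and 0.584 CPM. Of 62 contigs that best match powdery mildew fungi, 8 had any pair. In PB217 at month 36, TPD replicate 2 was the library least like its own group of all 21 (mean correlation of 0.931 with the other TPD libraries).

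Levels are pairs per 1000000 counted pairs (CPM), normalised by the trimmed mean of M-values (TMM) over all 21 libraries. Both transcripts were abundant. Per kilobase of contig, CL103Contig4 averaged 144 CPM and ranked 800 among the 86941 contigs, while CL100Contig24 averaged 43.1 and ranked 3126. The acyl carrier protein contig was thus the higher of the pair per length over the series as a whole. In latex as a bulk sample, fewer cells of a type and less RNA per cell cannot be told apart.

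The acyl carrier protein contig had similar levels in the 4 groups of control or month 1 trees. In PB217 controls at month 1, CL103Contig4 was at 183, 139 and 159 CPM. The PB217 ethephon trees of month 1 were at 150, 197 and 179 CPM. PB217 controls at month 36 were at 170, 176 and 162 CPM. These 3 groups overlapped, with means of 160 ± 22.1, 175 ± 23.9 and 170 ± 6.93 CPM (SD, n = 3). PB260 controls were at 157, 151 and 207 CPM, a mean of 172 ± 30.9, in the same range. The 3 ethephon groups of month 36 were lower. In PB217 with TPD the contig was at 104, 66.8 and 108 CPM (mean 92.9 ± 22.6). In PB260 it was at 108, 91.9 and 78.6 CPM in slight TPD trees (mean 93.0 ± 14.96). The severe TPD trees of PB260 were spread widely, at 84.3, 155 and 118 CPM (mean 119 ± 35.4), and their replicate 2 reached the range of the controls. In the order of the 7 means, from PB217 ethephon month 1 at the top to PB217 TPD at the bottom, the ranges of each neighbouring pair of groups overlapped (6 of 6).

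The serine palmitoyltransferase contig ran the other way. CL100Contig24 was at 85.9, 72.0 and 77.1 CPM in PB217 controls at month 1 (mean 78.3 ± 7.04). In PB217 ethephon trees at month 1 it was at 81.6, 72.9 and 73.1 CPM (mean 75.8 ± 4.95). Ethephon and control trees of month 1 thus covered the same range. PB217 controls at month 36 were at 56.2, 68.6 and 59.5 CPM (mean 61.4 ± 6.41), and PB260 controls at 69.5, 55.5 and 41.7 CPM (mean 55.5 ± 13.9). The month 36 controls were the 2 lowest groups of the series. In PB217 with TPD the contig was at 94.9, 169 and 82.9 CPM (mean 115 ± 46.4), with replicate 2 far above the other trees. Slight TPD trees of PB260 were at 98.4, 104 and 111 CPM (mean 105 ± 6.32), and severe TPD trees at 109, 101 and 99.0 CPM (mean 103 ± 5.28). In the order of means, the 3 ethephon groups of month 36 overlapped one another. The third of them, PB260 severe TPD, did not overlap with the next group, PB217 controls at month 1, while PB217 TPD did, through its replicate 3 at 82.9 CPM. PB217 ethephon trees at month 1 and PB217 controls at month 36 did not overlap either, and the other 4 of 6 neighbouring pairs did.

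**Figure D1:**
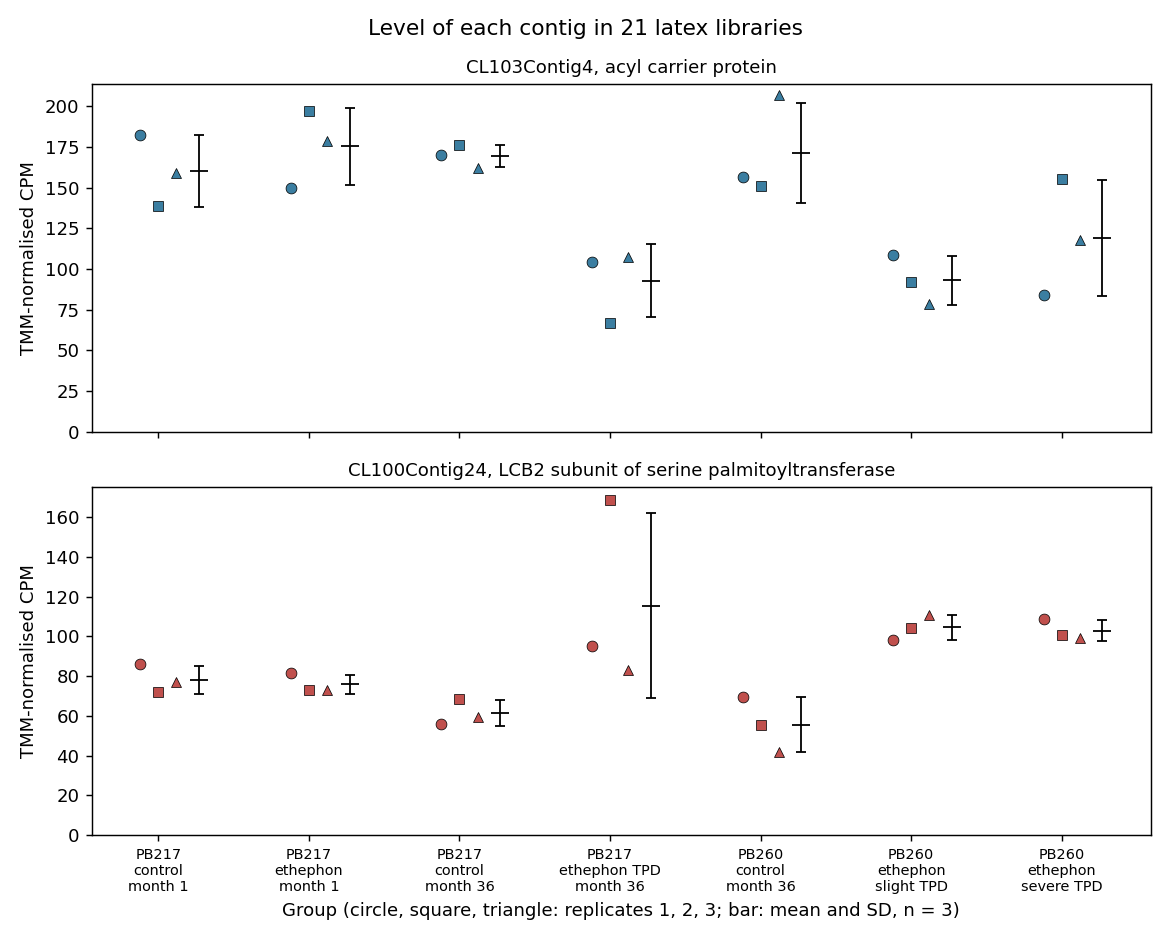
Level of CL103Contig4 (top) and CL100Contig24 (bottom) in TMM-normalised CPM in each of 21 libraries, by group; symbols are replicates, bars the mean and SD of 3 trees. The upper contig is lower, and the lower contig higher, in the 3 ethephon groups of month 36 than in most other libraries, with PB260 severe TPD replicate 2 at 155 CPM in the upper panel and PB217 TPD replicate 2 at 169 CPM in the lower one.

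The ratio of the pairs on the 2 contigs in the same library needs no scaling between libraries. In the 12 libraries of control or month 1 trees, CL103Contig4 held 1.84 to 4.96 pairs for each pair on CL100Contig24. In the 9 libraries of ethephon trees at month 36 the ratio was 0.396 to 1.54, and in 4 of these 9 trees the sphingolipid contig had more pairs than the fatty acid contig. The 2 sets of libraries did not overlap, which for PB260 restates the values the contigs were chosen on. How many other pairs of contigs part the same sets was not counted. Single contigs often parted groups: in PB217 at month 36, 18% were lower and 19.5% higher in TPD trees than in controls without overlap. In PB217 the ratio was 2.13, 1.93 and 2.07 in controls and 1.84, 2.71 and 2.44 in ethephon trees at month 1. At month 36 it was 3.03, 2.57 and 2.73 in PB217 controls. The PB217 TPD trees had ratios of 1.10, 0.396 and 1.30, all below their controls. PB260 controls had ratios of 2.26, 2.72 and 4.96, slight TPD trees 1.10, 0.880 and 0.708, and severe TPD trees 0.774, 1.54 and 1.19. CL100Contig24 is the longer contig (1971 against 976 bases), which raises its pairs. Per kilobase of contig the smallest ratio, in PB217 TPD replicate 2, was 0.801. It was the single library with more signal per length on CL100Contig24 than on CL103Contig4. Summed over the contig cluster of each, that library held 160 CPM per kilobase for acyl carrier protein and 90.1 for serine palmitoyltransferase.

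**Figure D2:**
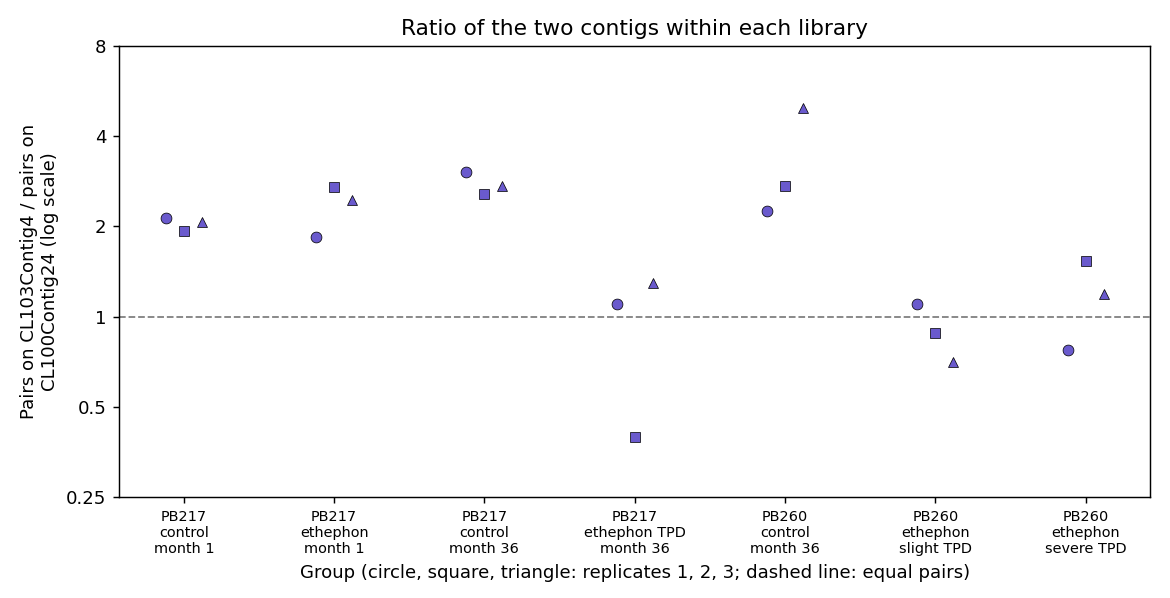
Pairs on CL103Contig4 divided by pairs on CL100Contig24 in each library, on a log scale, by group; the dashed line marks equal pairs. The 9 ethephon libraries of month 36 lie between 0.396 and 1.54 and the other 12 between 1.84 and 4.96. How many other pairs of contigs part these libraries was not counted.

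Over both months of PB217, the mean log2 ratio was 0.78 lower with ethephon than without. An exact two-sided permutation test with labels exchanged within month gave p = 0.085 (400 arrangements, smallest possible p 0.005). The same exact permutation test gave p = 0.095 for CL103Contig4 (a mean log2 CPM difference of -0.38) and p = 0.075 for CL100Contig24 (0.40). None of the 3 passed 0.05. At month 36 the log2 ratio differed by -1.74, against 0.17 at month 1, and the exact permutation p of 0.1 at month 36 is the smallest that 3 against 3 trees allow.

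The short ethephon treatment asks what the stimulant does to trees without TPD. After 1 month in PB217, neither contig moved beyond the spread between trees. The log2 fold change of ethephon against control was 0.13 for CL103Contig4 (standard error, SE, 0.17, 95% interval -0.24 to 0.51, adjusted p = 0.838, edgeR quasi-likelihood test). For CL100Contig24 it was -0.04 (SE 0.14, 95% interval -0.36 to 0.27, adjusted p = 0.944). The interval of CL103Contig4 thus includes a difference of 0.51 on the log2 scale. In this comparison 0% of the 27226 contigs tested were called at an adjusted p under 0.05. At an unadjusted p under 0.05, 1198 were higher and 1023 lower, while DESeq2 called 49 higher and 6 lower and edgeR's exact test 69 higher and 15 lower.

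After 36 months in PB217, with ethephon and TPD together, both contigs lay apart from their controls, in opposite directions. CL103Contig4, the acyl carrier protein contig, was lower in 3 of 3 TPD trees (66.8 to 108 against 162 to 176 CPM). Its log2 fold change was -0.87 (SE 0.23, 95% interval -1.40 to -0.35), with an adjusted p of 0.0502 in edgeR's quasi-likelihood test, just outside the threshold. CL100Contig24 was higher in 3 of 3 TPD trees (82.9 to 169 against 56.2 to 68.6 CPM). Its log2 fold change was 0.91 (SE 0.28, 95% interval 0.26 to 1.55, adjusted p = 0.0748 by the same test). Groups that do not overlap were common here: 18% of contigs tested were lower and 19.5% higher without overlap, and 8.94% were called. Neither contig passed the quasi-likelihood test. edgeR's exact test gave adjusted p = 0.0123 and 0.0313, and DESeq2 0.00818 and 0.0321, for CL103Contig4 and CL100Contig24.

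Whether the contigs passed at month 36 depended on the library left out, and so did the number of all contigs called. Without TPD replicate 2 the fold change of CL100Contig24 shrank from 0.91 to 0.54 (adjusted p = 0.0769, edgeR), and that of CL103Contig4 was -0.68 with adjusted p = 0.0371. Without TPD replicate 3 both passed (adjusted p = 0.0358 and 0.0341, edgeR). Without any 1 of the 3 controls, or without TPD replicate 1, neither did. In these fits 15, 241, 0 and 565 of all contigs were called, against 2604 with every library. The fold change of CL103Contig4 there was -0.87, -0.85, -0.91 and -0.95. Without TPD replicate 2 and 3, 2899 and 4611 contigs were called. The TPD libraries had TMM factors of 1.01 to 1.27 against 0.817 to 0.888 in the controls. Scaled by library totals alone, the group means differed by -0.48 and 1.36 on the log2 scale and the groups still did not overlap. The summed laticifer markers were at 4.63 to 49.4 CPM in the TPD trees and at 40.2 to 103 CPM in the controls, with both markers detected, and their part in the result was not tested.

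Time on tapping without ethephon was read from the PB217 controls. CL103Contig4 covered the same range at month 1 and month 36, with a log2 fold change of 0.13 (SE 0.16, 95% interval -0.22 to 0.47, adjusted p = 0.57, edgeR). CL100Contig24 was lower in 3 of 3 month 36 controls than in each month 1 control, by a log2 fold change of -0.31 (SE 0.15, 95% interval -0.64 to 0.03). It did not pass the test (adjusted p = 0.14, edgeR), in a comparison in which 35.3% of contigs were called and 27.1% were lower without overlap. Month and harvest day cannot be separated here.

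Among PB217 trees with ethephon, CL103Contig4 fell from month 1 to month 36. The log2 fold change was -0.92 (SE 0.25, 95% interval -1.48 to -0.35, adjusted p = 0.029, edgeR's quasi-likelihood test), and 24.1% of contigs were called in this comparison, 12.1% as lower. The month 36 trees were at 66.8 to 108 CPM and the month 1 trees at 150 to 197 CPM, and 22.5% of contigs were lower, and 22.3% higher, without overlap. The call was lost without any 1 of the 3 month 1 trees or without TPD replicate 1 (adjusted p = 0.0539 to 0.11, edgeR). It held without TPD replicate 2 or 3. Of all contigs, 2364 to 4033 were called where the call was lost, 7070 and 7161 where it held, and 6943 with every library. CL100Contig24 was at 82.9 to 169 CPM in month 36 trees and at 72.9 to 81.6 CPM in month 1 trees, a log2 fold change of 0.61 (SE 0.28, 95% interval -0.03 to 1.24). It did not pass the test (adjusted p = 0.143, edgeR), and without TPD replicate 2 the fold change was 0.28. The 2 comparisons of ethephon trees share the TPD libraries. The summed laticifer markers were at 66.4 to 158 CPM in the month 1 ethephon trees and 4.63 to 49.4 CPM in the month 36 ones, and their part in the result was not tested.

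Whether the ethephon difference of PB217 itself differed between the months was tested as an interaction over 12 libraries. For CL103Contig4 the difference was lower at month 36 than at month 1 by a log2 value of -1.02 (SE 0.29, 95% interval -1.64 to -0.40, adjusted p = 0.047, edgeR), with 7.59% of contigs called and 4.87% called lower. The p lay close to the threshold. Leaving out any 1 of 10 libraries gave an adjusted p of 0.0503 to 0.117 (edgeR). Only without TPD replicate 2 or 3 did the call remain (0.0452 and 0.021). In those 10 fits 500 to 1740 of all contigs were called. Without TPD replicate 2 and 3 the number was 2078 and 5255, and with every library 2101. For CL100Contig24 the interaction was 0.93 (SE 0.32, 95% interval 0.24 to 1.63, adjusted p = 0.0871, edgeR), and without TPD replicate 3 it was 1.13 with adjusted p = 0.0203. The contrast holds TPD, time on tapping and harvest day beside the length of treatment, and these cannot be told apart.

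In PB260, on whose values the contigs were chosen, the same pair of shifts is given as a description. With ethephon, slight TPD trees had 78.6 to 108 CPM of CL103Contig4 against 151 to 207 in controls, a log2 fold change of -0.88 (SE 0.20). CL100Contig24 was at 98.4 to 111 CPM against 41.7 to 69.5 CPM, a log2 fold change of 0.91 (SE 0.21). Neither overlapped with the controls; 21.9% of contigs were lower and 22.1% higher without overlap, and 27.6% were called. Severe TPD trees against the same controls gave -0.52 for CL103Contig4 (SE 0.25), with overlap through replicate 2 at 155 CPM. Scaled by library totals alone, those 2 groups did not overlap. For CL100Contig24 the severe TPD trees stood 0.90 above the controls on the log2 scale (SE 0.23) without overlap, where 18.5% of contigs were higher without overlap and 11.5% called. Severe against slight TPD trees, both with ethephon and harvested on 1 day, differed by 0.33 (SE 0.23) for CL103Contig4 and -0.05 (SE 0.15) for CL100Contig24, in both cases with overlap. In that comparison 0.133% of contigs were called.

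The sphingolipid contig thus had means of 105 and 103 CPM in slight and severe TPD trees of PB260, while the severe trees scattered in the acyl carrier protein contig. Scaled by library totals alone, CL100Contig24 was at 127 to 136 CPM in slight and 103 to 125 CPM in severe TPD trees, without overlap (-0.22 on the log2 scale). That scaling shifted the log2 fold changes of all contigs by -0.20 in this comparison. How many contigs part the 2 groups under library totals was not counted. The summed laticifer markers were at 7.10 to 58.5 CPM in PB260 controls, 3.86 to 10.9 CPM in slight TPD trees and 10.6 to 25.1 CPM in severe TPD trees, with both markers detected. Their part in the PB260 values was not tested.

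**Figure D3:**
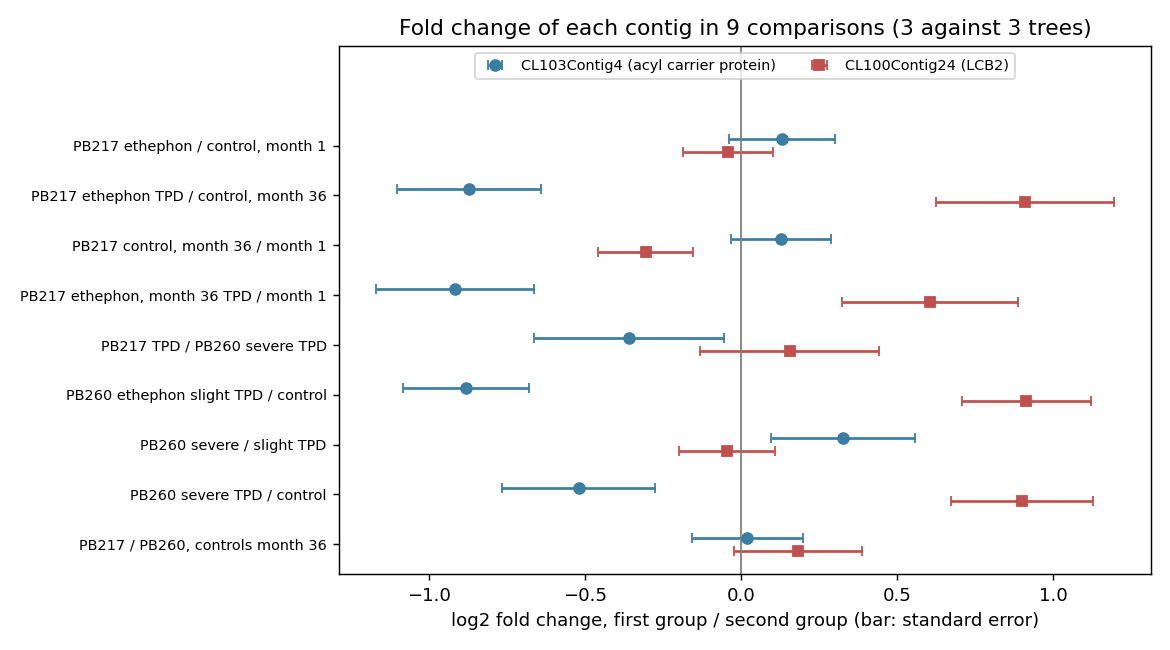
Log2 fold change (first group over second) of CL103Contig4 and CL100Contig24 in 9 comparisons of 3 against 3 trees, with SE. The pairs lie apart at -0.87 and 0.91 in PB217 at month 36 and at -0.88 and 0.91 in PB260 slight TPD trees, and close together at 0.13 and -0.04 in PB217 at month 1; several comparisons share libraries.

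The clones were set side by side at month 36 in trees labelled as having TPD and in controls. How severe TPD was in PB217 is not given, and the PB260 controls had slight TPD while those of PB217 are labelled healthy. As a description, PB217 TPD trees against PB260 severe TPD trees gave a log2 fold change of -0.36 for CL103Contig4 (SE 0.30). For CL100Contig24 it was 0.15 (SE 0.29), and 9.52% of contigs were called. The groups overlapped for both contigs. Among month 36 controls, PB217 against PB260 gave 0.02 (SE 0.18) for CL103Contig4 and 0.18 (SE 0.20) for CL100Contig24, with overlap, where 29.2% of contigs were called. That closeness depends on the scaling. By library totals alone, CL103Contig4 was at 132 to 151 CPM in PB217 controls and 159 to 233 CPM in PB260 controls, without overlap. Library totals shifted the log2 fold changes of all contigs by -0.37 here.

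Both contigs come from clusters of similar contigs, and in the acyl carrier protein cluster a second contig was as abundant. CL103Contig3 (842 bases), whose best match is an unnamed Jatropha protein, took 39.7 to 65.3% of the pairs of the 8 contigs listed for the cluster, and CL103Contig4 33.0 to 56.9%. The balance differed between the months in PB217. CL103Contig4 held 33.0 to 39.2% of the cluster in the 6 trees of month 1 and 43.3 to 52.4% in the 6 trees of month 36. CL103Contig3 averaged 298 and 280 CPM in PB217 controls and ethephon trees at month 1, and 167 CPM in controls at month 36. From month 1 to month 36 in PB217 controls it fell by 0.79 on the log2 scale (SE 0.16, adjusted p = 0.00322, edgeR), where 17.2% of contigs were called lower and CL103Contig4 was not. The difference between the 2 contigs was not tested.

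At month 36 with ethephon the fold changes of the neighbour were negative as well, while in PB217 at month 1 it had -0.09 (SE 0.17, adjusted p = 0.892, edgeR) beside 0.13 for CL103Contig4. CL103Contig3 was at 130, 72.3 and 122 CPM in PB217 TPD trees, against 189, 153 and 160 CPM in controls, without overlap. Its log2 fold change was -0.63 (SE 0.26, adjusted p = 0.137, edgeR). Of all contigs tested in that comparison, 18% were lower without overlap. From month 1 to month 36 in PB217 ethephon trees CL103Contig3 fell by 1.37 on the log2 scale (SE 0.28, adjusted p = 0.00944, edgeR). CL103Contig7, another contig that best matches acyl carrier protein, there fell by 1.40 on the log2 scale (SE 0.25, adjusted p = 0.00479, edgeR), from 6.04 to 2.28 CPM in the mean. With CL103Contig4 itself, 3 of 3 tested contigs of the cluster were thus called lower in that comparison, against 12.1% of all contigs tested. Being similar contigs of 1 cluster, they are not independent. The 2 tested contigs of other fatty acid synthesis enzymes there had positive fold changes. These were 0.51 for CL1061Contig12 and 0.60 for CL10718Contig1, neither called (adjusted p = 0.198 and 0.321, edgeR). In PB217 at month 36 against control 4 of the 8 contigs of the cluster were tested, all 4 with negative fold changes and none called. Their median was -0.66 against 0.06 over all contigs tested. In PB260, again as a description, CL103Contig3 had a log2 fold change of -0.55 in slight TPD trees (SE 0.20), and the fold changes of the 4 contigs compared were all negative. In PB260 severe TPD trees CL103Contig3 was at 119, 209 and 188 CPM, and its log2 fold change against control was -0.05 (SE 0.25). The scatter of CL103Contig4 in these trees recurred in this contig, with replicate 1 lowest and replicate 2 highest in both. CL103Contig6 and CL103Contig9, at a mean of 1.20 and 0.82 CPM, were called in no comparison in which they were tested. CL103Contig6 was not tested where PB217 ethephon trees of month 1 were used. CL103Contig9 was tested only in PB260 severe TPD trees against slight TPD trees and against control. CL103Contig7 was higher in PB217 than in PB260 controls (1.04, SE 0.28, adjusted p = 0.0216, edgeR), where 15.3% of contigs were called higher.

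**Figure D4:**
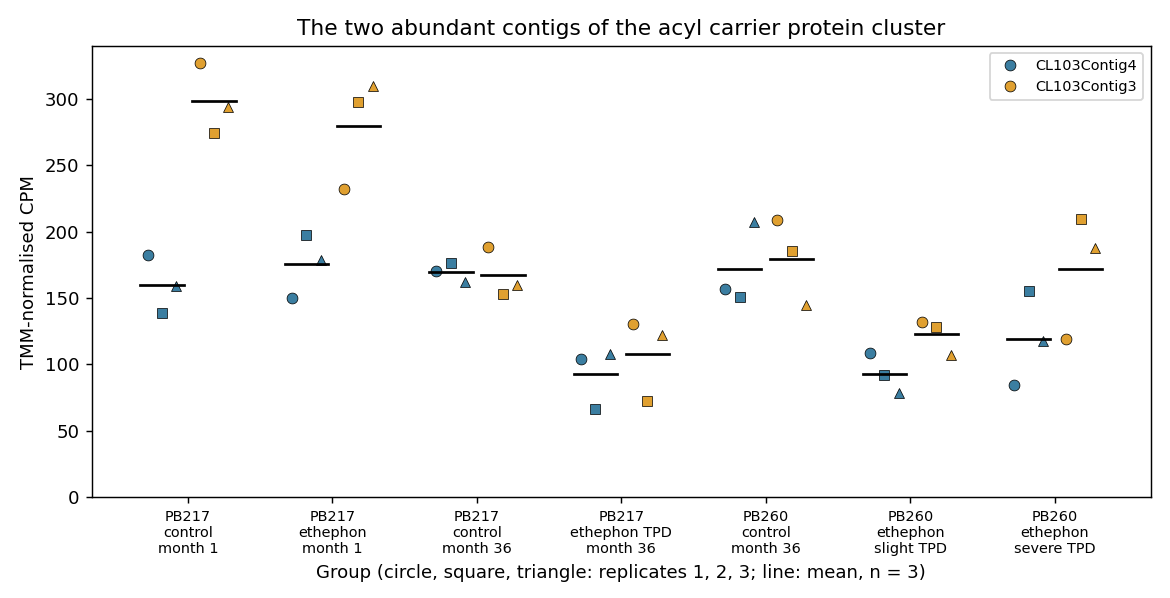
TMM-normalised CPM of CL103Contig4 and CL103Contig3 in each library, by group, with the mean of 3 trees as a line. CL103Contig3 averages 298 and 280 CPM in the PB217 month 1 groups and 167 CPM in PB217 controls at month 36, while CL103Contig4 averages 160, 175 and 170 CPM in the same groups.

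Summed over the 8 contigs of the cluster, CL103Contig3 with its unnamed match included, the level was 468 ± 50.7 and 464 ± 63.6 CPM in PB217 controls and ethephon trees at month 1 (SD, n = 3). It was at 344 ± 20.1 CPM in PB217 controls and 206 ± 54.5 CPM in PB217 TPD trees at month 36. PB260 stood at 358 ± 15.7 in controls, 220 ± 29.5 in slight TPD trees and 297 ± 81.9 CPM in severe TPD trees. In PB217 controls the sum was lower at month 36 than at month 1 without overlap, a difference that was not tested, while CL103Contig4 overlapped. Of single contigs tested there, 27.1% were lower without overlap. The log2 ratio of the cluster sums differed between ethephon and control trees of PB217 by 0.03 at month 1 and -1.62 at month 36. Over both months the difference was -0.80 (exact permutation test within month, p = 0.055).

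In the serine palmitoyltransferase cluster, CL100Contig24 was nearly the whole signal, with 93.0 to 97.0% of the pairs of the 14 contigs listed. CL100Contig3 (2080 bases), whose best match is serine palmitoyltransferase 2 of cotton, was the other tested contig. It was at 1.64, 1.93 and 1.63 CPM in PB217 controls at month 36 and at 2.54, 4.81 and 2.19 CPM in TPD trees, without overlap and again with TPD replicate 2 highest. Of all contigs tested there, 19.5% were higher without overlap. The log2 fold change of CL100Contig3 was 0.88 (SE 0.36, adjusted p = 0.141, edgeR). In PB260, as a description, the log2 fold change was 0.82 in slight TPD trees (SE 0.24) and 0.51 in severe TPD trees (SE 0.32). Of the other listed contigs, 1 had no pair in any library. The cluster also holds contigs of other names, among them CL100Contig13 and CL100Contig5, which best match the Golgi protein CASP, and CL100Contig11, which best matches an unnamed Jatropha protein. In PB217 at month 36 against control these 3 had log2 fold changes of -0.24, 0.39 and -0.39, and none was called (adjusted p = 0.411, 0.255 and 0.171, edgeR).

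The few other enzymes of both routes that could be named in the annotation at hand were rare in latex. That annotation covered 2148 of the 86941 contigs, so the levels of enzymes outside it were not looked at. For fatty acid synthesis 4 contigs were listed and 2 were tested in each comparison. CL1061Contig12 best matches enoyl-ACP reductase 1, which completes each cycle of chain growth, and averaged 4.71 CPM. It was at 7.93, 7.02 and 6.26 CPM in the mean of PB260 control, slight and severe TPD trees, and at 3.64 and 3.24 CPM in PB217 controls and TPD trees at month 36. Its log2 fold change was -0.17 for ethephon in PB260 slight TPD trees and -0.17 in PB217 TPD trees, and neither passed (adjusted p = 0.544 and 0.688, edgeR). Between the clones it was lower in PB217 controls, with a log2 fold change of -1.09 (SE 0.22, adjusted p = 0.00549, edgeR), where 13.9% of contigs were called lower. CL10718Contig1 best matches the mitochondrial 3-oxoacyl-ACP synthase, which lengthens the chain, and was called in no comparison at a mean of 1.77 CPM. CL1061Contig9, also matching enoyl-ACP reductase, was at 0.431 CPM and was not tested.

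Among 4 contigs of other sphingolipid enzymes, 1 to 3 were tested in a comparison. CL1039Contig8 best matches 3-ketodihydrosphingosine reductase, the enzyme that acts right after serine palmitoyltransferase. It averaged 1.25 CPM, and from month 1 to month 36 in PB217 controls it fell by 1.10 on the log2 scale (SE 0.32, adjusted p = 0.02, edgeR). Between the months in these controls, 17.2% of all contigs tested were called lower. In PB217 TPD trees against control CL1039Contig8 had a log2 fold change of 0.67 (SE 0.35, adjusted p = 0.227, edgeR). In PB260 slight TPD trees it had -0.08 (adjusted p = 0.872, edgeR). CL1003Contig3 and CL1003Contig1, which best match sphingosine kinases, the enzymes that phosphorylate long-chain bases, averaged 1.24 and 1.08 CPM and were called in no comparison. In PB260 slight TPD trees 0 of 2 tested contigs of the fatty acid list and 0 of 3 of the sphingolipid list were called, where 27.6% of all contigs tested were. With so few contigs these counts say little about either list.

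Of 7 contigs of lipid transfer and acyl handling, 2 had no pair in any library. CL10567Contig1, which best matches acyl-CoA binding protein 3A, averaged 1.16 CPM. From month 1 to month 36 in PB217 it fell by 2.01 on the log2 scale in controls (SE 0.29, adjusted p = 4.31e-04) and fell by 1.78 in ethephon trees (SE 0.44, adjusted p = 0.019, edgeR). In these comparisons 17.2% and 12.1% of all contigs tested were called lower. At month 36 CL10567Contig1 was too low to be tested between ethephon and control. CL1065Contig5, a GDSL lipase match, and CL1068Contig2, which best matches a glycerol-3-phosphate acyltransferase, were at 0.365 and 0.0228 CPM and were not tested.

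The contigs whose pattern over the 21 libraries was most like that of each contig were ranked by Pearson's r of log2(CPM + 1), among 28311 contigs that reached 1 CPM in 11 or more libraries. The points share their library and the group structure, so r is a description. CL1Contig6513 came first for CL103Contig4 (r = 0.96). It averaged 20.8 CPM in PB260 controls and 9.81 CPM in slight TPD trees, and 24.2 and 11.1 CPM in PB217 controls and TPD trees at month 36. CL1422Contig7 and CL928Contig4 followed, each with r = 0.93, and none of the 3 had an annotation at hand. Among 223 contigs with a named match, CL10275Contig3 (protoporphyrinogen oxidase, of haem and chlorophyll synthesis, r = 0.85), CL1038Contig7 (nucleolar protein 56-like, r = 0.84) and CL1040Contig1 (a pentatricopeptide repeat protein, r = 0.83) were most like it.

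For CL100Contig24 the first was CL9181Contig1 (r = 0.95), followed by CL1Contig15264 (r = 0.95) and CL1215Contig9 (r = 0.93), again without annotation at hand. CL1215Contig9 spanned a wider range than CL100Contig24 itself, from 9.46 CPM in PB260 controls to 80.0 CPM in slight TPD trees, and from 17.3 to 82.2 CPM in PB217 at month 36. Among contigs with a named match came CL10416Contig1 (phosphofructokinase, of glycolysis, r = 0.86), CL100Contig3 of its own cluster (r = 0.83) and CL10340Contig1 (mitochondrial ribosomal protein L47-like, r = 0.82). CL10416Contig1 averaged 6.31 CPM in PB260 controls, 32.3 CPM in slight and 24.9 CPM in severe TPD trees, and 7.78 and 20.7 CPM in PB217 controls and TPD trees at month 36.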

How the data were processed

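The authors trimmed reads, removed ribosomal reads, mapped them with Bowtie2 to the PB260 reference transcriptome and deposited raw counts of read pairs per contig and of single reads; contig length is the other deposited column. Reads with several equally good hits were removed. PB217 reads were mapped to the PB260 contigs too. The tools were edgeR 4.0.16 (quasi-likelihood F test, TMM, prior count 0.125) and DESeq2 1.42.0 under R 4.3.3. Each comparison used its own 6 libraries and contigs that reached 1 CPM in 3 or more of them, with Benjamini-Hochberg adjustment over all contigs and a threshold of 0.05; the interaction used 12 libraries. Single values were tested by exact permutation within month. Ratios on the log2 scale used pairs plus 0.5. The quasi-likelihood fit was tested on counts simulated from PB217 TPD against control at month 36. There 99 of 28585 contigs had a log2 change of 1 and 93 a change of 2. It called 5.05% of the former and 82.8% of the latter, with 9 false calls, so changes of 1 were mostly missed. The data differ from this setting, with 2604 contigs called. The contigs and lists were chosen with earlier results of these data known. Lists came from the annotation of 2148 contigs at hand. Named were both contigs, the tested contigs of their clusters, the 3 most abundant of each other list, and the 3 most similar contigs, overall and with a named match. Alternatives were DESeq2 size factors, library totals, no filter, DESeq2's and edgeR's exact tests, all libraries of the clones in 1 fit, a replicate block, cluster sums and leaving out each library. The reads column, totals for the group overlap and the block in the permutation tests of single contigs were added after seeing the data.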

Additional observations from a re-analysis of the deposited data

Results flagged for a closer look

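For CL103Contig4, the acyl carrier protein contig, the ethephon difference of PB217 differed between month 36 and month 1 by -1.02 on the log2 scale in the interaction test (standard error 0.29, adjusted p = 0.047, edgeR). In the interaction 7.59% of contigs were called, 4.87% as lower, and with 1 library left out the call remained in 2 of 12 fits. The contig was lower in 3 of 3 TPD trees than in each control at month 36, where 18% of contigs were lower without overlap. That contrast did not pass (adjusted p = 0.0502, edgeR's quasi-likelihood test), and the groups overlapped at month 1.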

How the results depend on the processing

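In PB217 at month 36 against control, the fold change of CL103Contig4 kept its direction in 13 of 13 alternatives and passed in 7. It was -0.88 without a count filter (adjusted p = 0.0264), -0.90 with DESeq2's test, -0.87 with the exact test, -0.89 with all PB217 libraries in 1 fit (0.00833) and -0.90 with single reads (0.0468), and -0.99 to -0.68 with 1 library left out. CL100Contig24 kept its direction and passed in 5 of 13: 0.89 without a filter (0.025), 0.88 with DESeq2, 0.91 with the exact test, 0.88 with all libraries (0.0151) and 0.54 to 1.09 with 1 library left out. With all PB217 libraries in 1 fit it also passed in ethephon trees between the months (0.64, adjusted p = 0.0436). There CL103Contig4 ranged from -1.02 to -0.68 and CL100Contig24 from 0.28 to 0.84 with 1 library left out. The interaction ranged from -1.14 to -0.85 and from 0.54 to 1.13. CL100Contig24 changed sign, without passing, at month 1 without control replicate 1 (0.026, lowest -0.11). Between PB217 TPD and PB260 severe TPD it changed sign without PB217 TPD replicate 2 (-0.23, range -0.23 to 0.39). In the permutation test of CL100Contig24 the difference ranged from 0.25 to 0.50, with p = 0.04 without control replicate 1 of month 1. The cause was not tested.

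The replicate numbers did not pair the trees: same-numbered libraries correlated by -0.495 to 0.414, and over 0.1 for every number in no comparison. With the replicate block CL103Contig4 was at -0.94 in ethephon trees between the months (adjusted p = 0.0771) and -1.05 in the interaction (0.0674), and the block changed no other call of the contigs. Library totals without TMM shifted the log2 fold changes of all contigs by 0.41 in PB217 at month 36, 0.55 between the months with ethephon, -0.13 at month 1 and -0.37 between the controls of the clones.

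The number of contigs called moved by over 1.5 times. In PB217 at month 36, 2604 were called, 5792 without a filter, 4875 by DESeq2, 4847 by the exact test, 6581 with all libraries in 1 fit, and 0 to 4611 with 1 library left out. At month 1 the count went from 0 to 464 without a filter, 55 by DESeq2, 84 by the exact test, 6 with the block and 2 with 1 library left out. Severe against slight TPD in PB260 went from 40 to 752 without a filter, 642 by DESeq2, 566 by the exact test and 88 with the block. PB217 TPD against PB260 severe TPD went from 2906 to 6358 without a filter, 6537 with all libraries and 1363 with the block. The interaction went from 2101 to 4522 without a filter and 3686 by DESeq2, and to 500 to 5255 with 1 library left out. Ethephon trees of PB217 between the months went from 6943 to 4156 with the block, and PB260 severe TPD against control from 3439 to 5448 without a filter. With 1 library left out these 2 counts were 2364 to 7161 and 1005 to 3127, severe against slight TPD 0 to 76, PB217 TPD against PB260 severe TPD 1202 to 2036, PB260 slight TPD against control 5154 to 7890 (8436 with all) and the controls of the clones 4758 to 7472 (8595 with all).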
